A study of Mus musculus with 12 samples.

Results

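The genes described here are 10 genes of blood clotting and clot removal in the mouse: F3, F2r, F13a1, Thbd, Procr, Tfpi, Vwf, Plau, Plaur and Plat. They were chosen by name, with earlier results of these data known. Matched on gene symbol, all 10 were found among the 18050 genes of the deposited table. All 10 were also among the 13592 genes that passed the filter on low counts in both tests used. RNA came from the left ventricle of wild type mice, taken 7 days after either a sham operation or MI, the usual abbreviation of myocardial infarction. Each group held 6 libraries of poly(A)-selected RNA, numbered as replicates 1 to 6. The submitters' processing notes name software for replicates 3 to 6 only, so MI was compared with sham within each of these 2 replicate sets as well as over all 12 libraries. Whether the libraries stem from different animals is not stated in the labels, so the p-values measure spread among these libraries only, and this may be technical.

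Clotting starts when tissue factor, the product of F3, meets factor VII from the blood on a cell surface, and it ends in thrombin, which cuts fibrinogen into fibrin and also signals to cells through receptors such as the product of F2r. Vessel walls hold this in check with thrombomodulin, the endothelial protein C receptor and tissue factor pathway inhibitor, the products of Thbd, Procr and Tfpi. Fibrin is dissolved by plasmin, which is cut from plasminogen by urokinase and tissue-type plasminogen activator, the products of Plau and Plat. Urokinase is held on cells by its receptor, the product of Plaur. After infarction these systems act in a tissue that is losing muscle and gaining inflammatory cells and scar.

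Depth ranged from 9140353 to 18602226 expected counts per library. Levels are given as CPM, a gene's count per unit of library depth after scaling by the trimmed mean of M-values (TMM), or as TPM, which also divides by gene length, where genes are compared with each other. Replicates 1 and 2 scattered more, with a biological coefficient of variation of 0.112 (sham) and 0.192 (MI), than replicates 3 to 6, with 0.0293 (sham) and 0.0208 (MI). The label of heart tissue was met by the 10 heart muscle markers, which summed to between 114000 and 131000 CPM in the sham libraries. All 10 fell after MI, to sums of 7420 to 11500 CPM in replicates 1 and 2 and 34700 to 35400 CPM in replicates 3 to 6. Lung epithelial markers, among them the surfactant genes Sftpc and Sftpb, summed to at most 3.16 CPM in every sham library, to 15.6 and 28.4 CPM in MI replicates 1 and 2, and to 181 to 185 CPM in MI replicates 3 to 6. Sftpc, Sftpa1 and Sftpd had no counts in MI replicates 1 and 2. Hbb-bs and Hbb-bt, the genes of 1 of the mouse beta-globin haplotypes, took 99.9% to 100% of beta-globin counts in sham replicates 3 to 6 and 0.0596% to 0.194% in MI replicates 3 to 6. In those 8 libraries a difference of genetic background and the effect of MI cannot be told apart, and the part of either pattern in the results below was not tested.

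After MI, 5 of the 10 genes rose, 2 fell and 3 were called in neither direction. The genes that rose were the thrombin receptor F2r, the protein C receptor Procr and the 3 plasminogen activation genes Plau, Plaur and Plat. Those that fell were tissue factor, F3, and the A subunit of coagulation factor XIII, F13a1. A gene was called only where edgeR's quasi-likelihood test gave a Benjamini-Hochberg adjusted p under 0.05 with all 12 libraries and again with replicates 3 to 6 of each group summed and counted as 1 sample. By the same rule 28.1% of all tested genes rose, 29.8% fell and 58% did either. All 5 that rose did so by at least 2-fold, as 17% of tested genes did. The median log2 fold change of the 10 genes was 0.51, beside 0.01 for all tested genes. In CPM, each MI library lay above each sham library for the 5 that rose, as it did for 21.3% of tested genes. For the 2 that fell each MI library lay below each sham library in CPM, as it did for 21.4%. The groups overlapped in CPM for Thbd, Tfpi and Vwf. In TPM the groups of F3 overlapped, at 12.7 to 19.3 in sham and 11.1 to 15.6 in MI. Those of F13a1 also overlapped in TPM, at 25.7 to 64.5 in sham and 11.3 to 30.8 in MI. The first edgeR test alone gave 5 higher (37.9% of all genes) and 3 lower (38%), and the second alone 5 higher (28.2%) and 2 lower (29.5%). Within replicates 1 and 2 alone 6 genes were higher (34.1% of all genes) and 2 lower (32.9%), and within replicates 3 to 6 alone 5 were higher (42.3%) and 4 lower (39.6%).

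**Figure D1:**
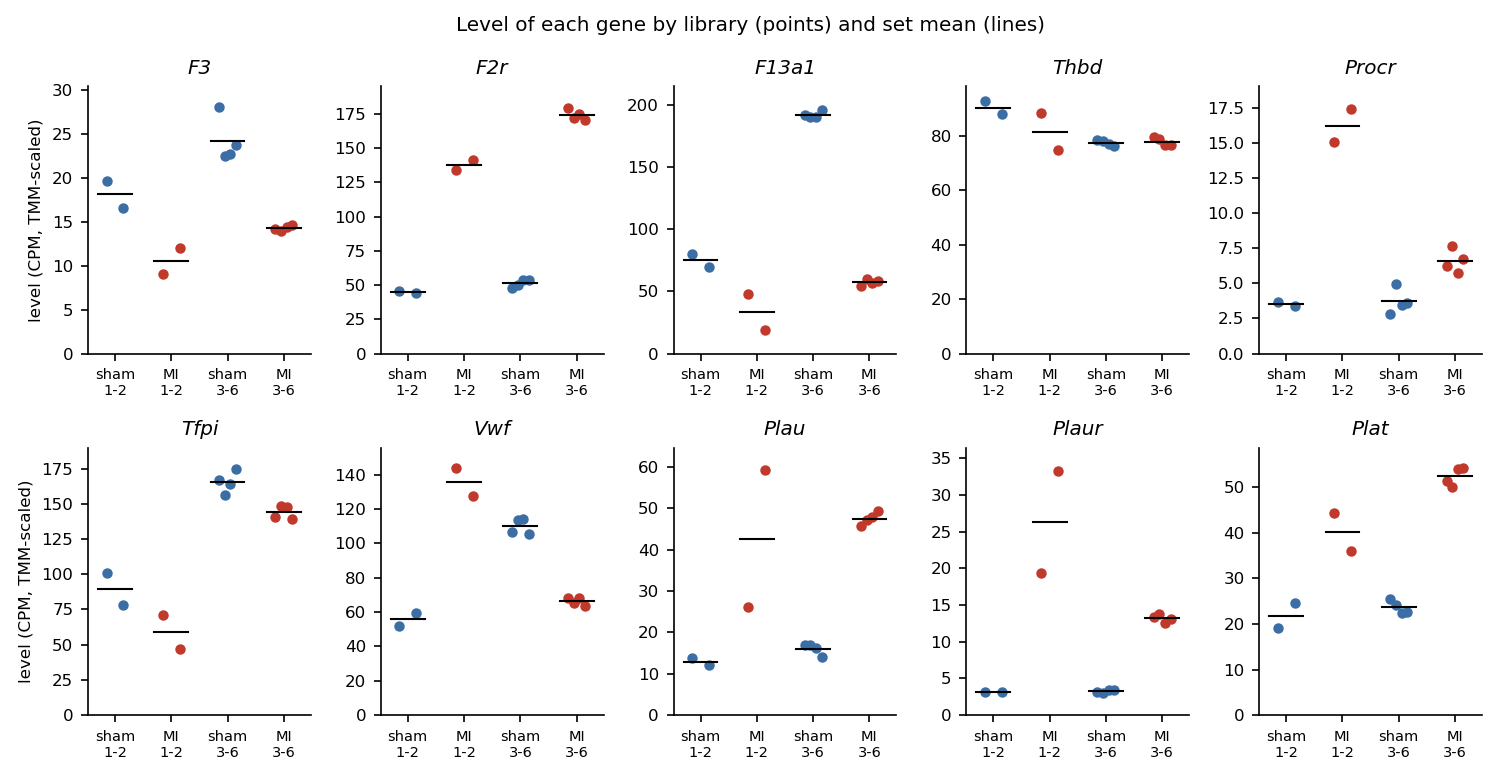
Level of each of the 10 genes in CPM (vertical axis, from 0) in every library, with points for libraries, lines for means, blue for sham and red for MI, split into replicates 1 and 2 and replicates 3 to 6. The red points of F2r, Procr, Plau, Plaur and Plat lie above all blue points, those of F3 and F13a1 below all of them, and Vwf changes order between the replicate sets.

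TMM scaling centres each library on its middle genes, and small changes depended on that. With library size alone in place of TMM, the median of all tested genes moved to 0.42 on the log2 scale, and on log2(TPM + 1) it moved to 0.54. F2r, Procr, Plau, Plaur and Plat rose under each of the 5 scalings tried. F13a1 had a negative log2 fold change under all 5 but was not called with library size alone (adjusted p 0.0514 in the second edgeR test) or on log2(TPM + 1) (adjusted p 0.0727 in the second limma test). F3 was negative under all 5, with a log2 fold change between -0.77 and -0.11, and was called under TMM and DESeq2 size factors only. The values of Thbd, Tfpi and Vwf were below 0 under those 2 scalings and above 0 under the other three, and Thbd was called higher with limma on log2(FPKM + 1) and log2(TPM + 1).

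**Figure D2:**
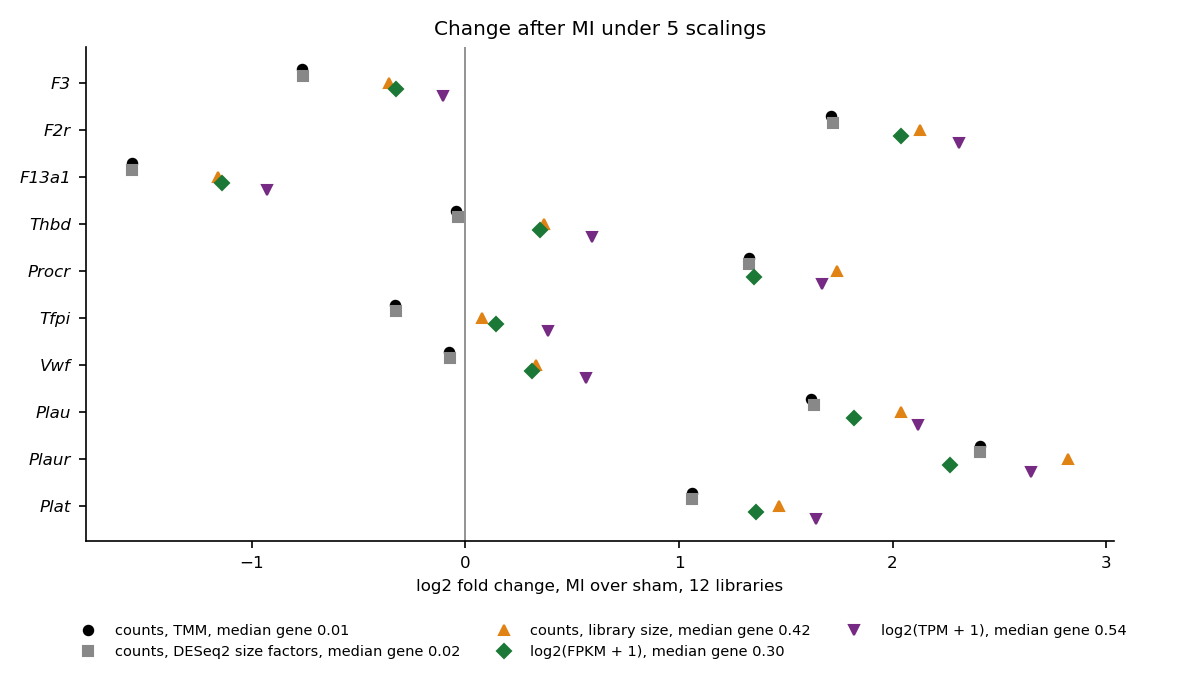
Log2 fold change of MI over sham in 12 libraries (horizontal axis) for each gene under 5 scalings, each drawn with its own marker, with the median of all tested genes in the legend. F2r, Procr, Plau, Plaur and Plat stay right of 0, F3 and F13a1 stay left of it, and Thbd, Tfpi and Vwf lie on both sides.

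The promoter sequences of 6 of the 10 genes were found in the RefSeq table of build GRCm38.p6, which holds 250 bases before and 50 after each start. Thbd, Vwf, Plau and Plat were not matched. The 6 genes have 8 windows, since F13a1 and Tfpi have 2 start sites each. The windows were searched on both strands for 5 motifs, and the one shown is TGANTCA, the letters bound by AP-1, a factor of Fos and Jun proteins that responds to injury signals. It was in 4 of the 8 windows, those of F3, F2r, Procr and Plaur, and in 7.81% of 32851 windows of the same length. Of these, F2r, Procr and Plaur rose after MI and F3 fell. The windows of F13a1 and Tfpi held none. Of the other motifs, the GC box GGGCGG was in windows of F3, F2r, Tfpi and Plaur, and in 35.7% of all windows. The TATA box letters TATAAA were in windows of F3 and Tfpi, and in 13.6% of all windows. Both matches read TTTATA, so TATAAA lies on the other strand. The F3 match lies after the start, at bases 44 to 49, and the Tfpi match before it, at -127 to -122. The KLF motif CCACACCC was in F3 alone of the 6 genes and in 3.56% of all windows, and the NF-kB motif in none of the 6 and 0.411% of all windows. The bases before the start that lie outside annotated exons are shown for F3, F2r, Procr and Plaur, 5′ to 3′ on the gene's strand, with the TGANTCA matches in capitals. A match is a run of letters, and binding was not measured.
F3: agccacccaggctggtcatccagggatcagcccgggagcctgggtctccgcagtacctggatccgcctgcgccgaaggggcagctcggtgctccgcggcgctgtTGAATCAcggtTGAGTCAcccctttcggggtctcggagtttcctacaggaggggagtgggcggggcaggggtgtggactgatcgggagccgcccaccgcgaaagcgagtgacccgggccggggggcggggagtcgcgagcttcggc
F2r: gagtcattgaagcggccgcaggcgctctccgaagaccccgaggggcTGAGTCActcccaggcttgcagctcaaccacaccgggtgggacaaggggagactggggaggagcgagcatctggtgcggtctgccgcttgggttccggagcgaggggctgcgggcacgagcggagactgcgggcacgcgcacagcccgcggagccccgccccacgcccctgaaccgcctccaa
Procr: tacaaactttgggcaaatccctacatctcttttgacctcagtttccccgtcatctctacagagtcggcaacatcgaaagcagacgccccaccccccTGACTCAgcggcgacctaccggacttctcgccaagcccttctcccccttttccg
Plaur: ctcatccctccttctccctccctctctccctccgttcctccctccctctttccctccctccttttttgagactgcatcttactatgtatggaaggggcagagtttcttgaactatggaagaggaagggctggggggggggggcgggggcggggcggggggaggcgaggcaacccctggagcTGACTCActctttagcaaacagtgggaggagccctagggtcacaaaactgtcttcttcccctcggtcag

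The F3 stretch is chr3:121723287-121723536 on the plus strand and is 250 bases long, with a pair of matches, at bases 105 to 111 and 116 to 122 counted from 1 at the 5′ end of the stretch printed. The F2r stretch is chr13:95618488-95618716 on the minus strand, 229 bases long, with its match at bases 47 to 53 counted in the same way. The Procr stretch is chr2:155750967-155751116 on the plus strand, 150 bases long, with its match at bases 97 to 103. The Plaur stretch is chr7:24462233-24462482 on the plus strand, 250 bases long, with its match at bases 182 to 188.

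Tissue factor, the membrane protein that starts clotting, was lower after MI on the TMM scale. F3 (GRCm38 chromosome 3, 121723537 to 121735048, plus strand) stood at 19.7 and 16.5 CPM in sham replicates 1 and 2 and at 9.10 and 12.1 CPM in the MI libraries of the same numbers. In replicates 3 to 6 the sham libraries gave 28.1, 22.5, 22.7 and 23.8 CPM and the MI libraries 14.2, 14.02, 14.4 and 14.6 CPM. No MI library reached the lowest sham library, and the MI libraries of the larger set differed among themselves by under 1 CPM. F3 fell by 0.77 on the log2 scale (SE 0.09, edgeR adjusted p 5.57e-06, and 0.0101 in the second test). The values within the sets were close, -0.79 and -0.72. Without sham replicate 1 the second test gave an adjusted p of 0.051, and the call was lost. In TPM, F3 stood at 15.8 ± 2.10 (SD, n = 6) in sham and 14.7 ± 1.76 (SD, n = 6) in MI. The limma test on log2(TPM + 1) gave a difference of -0.11 (adjusted p 0.268), against 0.54 for the median gene.

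F2r encodes protease-activated receptor 1, through which thrombin signals to platelets in man and to fibroblasts, endothelium and muscle in the mouse. The gene lies on chromosome 13, 95601803 to 95618487, minus strand. Its level was 45.9 and 44.0 CPM in sham replicates 1 and 2 and 134 and 142 CPM in MI. Among replicates 3 to 6 sham libraries held 47.5, 49.7, 53.9 and 53.8 CPM and MI libraries 179, 172, 175 and 170 CPM. The sham libraries of both sets lay between 44.0 and 53.9 CPM, and each MI library lay more than 2-fold above the highest of them. F2r rose 3.28-fold over 12 libraries, a log2 fold change of 1.71 (SE 0.05, edgeR adjusted p 1.62e-10, and 0.000795 in the second test). The fold was 3.03 in the smaller set and 3.51 in the larger, a difference that did not pass the test (adjusted p 0.15). In MI replicates 1 and 2 it was the highest of the 10 genes in TPM, at 95.4 ± 6.99 (SD, n = 2).

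F13a1 encodes the catalytic subunit of factor XIII, the transglutaminase that links fibrin strands to each other. It is also known as a gene of platelets and of resident tissue macrophages. The gene lies on chromosome 13, 36867178 to 37050244, minus strand, and 1.1% of its exon length overlaps Gm30489 on the other strand. Sham replicates 1 and 2 held 80.5 and 70.0 CPM, and MI replicates 1 and 2 held 47.6 and 18.5 CPM. In replicates 3 to 6 the sham libraries held 192, 190, 191 and 196 CPM and the MI libraries 54.2, 60.0, 56.8 and 58.2 CPM. The sham level differed more than 2-fold between the sets, while 5 of the 6 MI libraries lay between 47.6 and 60.0 CPM, with MI replicate 2 far below them. F13a1 fell by 1.56 on the log2 scale (SE 0.19, edgeR adjusted p 9.2e-06, and 0.0194 in the second test), by 1.20 in replicates 1 and 2 and by 1.70 in replicates 3 to 6. Without sham replicate 1 the second test gave an adjusted p of 0.0661, and the call was lost.

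Markers of the cells that F13a1 is known from were read beside it. Of 12 macrophage markers 10 rose, and their sum went from 746 to 789 CPM up to 4580 to 7540 CPM in replicates 1 and 2, and from 1320 to 1380 CPM up to 4060 to 4200 CPM in replicates 3 to 6. Lyz2, the most abundant, rose by 2.60 on the log2 scale, and Gpnmb, a gene of lipid-laden macrophages, by 7.25. Cd163, a scavenger receptor of resident macrophages, and Mrc1, another of their markers, were picked with their values known. They were the only 2 of the 12 that did not rise, and the list does not tell resident macrophages from others. The 10 that rose include Adgre1, Csf1r and Mertk. Cd163 was the 1 marker of the list that fell, from a mean of 19.3 to 5.58 CPM and from 74.0 to 7.64 CPM in the 2 sets. Mrc1 was not called (log2 fold change 0.06). Of 7 tested platelet markers 2 rose, 2 fell and 3 were not called. The 2 most abundant were those that fell, Pf4 by 0.60 and Gp1ba by 1.65. The platelet sum was 31.5 to 34.8 CPM in sham and 27.9 to 33.4 CPM in MI for replicates 1 and 2, and 52.2 to 61.7 CPM and 42.8 to 47.7 CPM for replicates 3 to 6. The part of these cells in the F13a1 result was not tested, and in whole ventricle fewer cells of a type and less RNA per cell cannot be told apart.

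Thbd encodes thrombomodulin, which turns thrombin from a clotting enzyme into an activator of protein C. The gene has a single exon on chromosome 2, 148404466 to 148408188, minus strand. Sham replicates 1 and 2 held 92.7 and 87.8 CPM and MI replicates 1 and 2 held 88.3 and 74.8 CPM. All 8 libraries of replicates 3 to 6 lay between 76.2 and 79.7 CPM, whether sham or MI. The log2 fold change was -0.04 (SE 0.05, edgeR adjusted p 0.487), with -0.16 and 0.06 in the 2 sets. In TPM, where the same libraries are divided by another total, Thbd stood at 29.4 ± 4.81 (SD, n = 6) in sham and 44.6 ± 5.02 (SD, n = 6) in MI, a log2(TPM + 1) difference of 0.59 (limma adjusted p 3.18e-07, and 0.00782 in the second test) against 0.54 for the median gene.

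Procr encodes the endothelial protein C receptor, which presents protein C to thrombomodulin. It lies on chromosome 2, 155751117 to 155755471, plus strand, and was among the lowest of the 10 genes in sham hearts. Sham libraries held 3.65 and 3.41 CPM in replicates 1 and 2 and 2.81, 4.97, 3.47 and 3.62 CPM in replicates 3 to 6, where these values rest on 24 to 40 counts. MI libraries held 15.1 and 17.4 CPM in replicates 1 and 2 and 6.23, 7.69, 5.72 and 6.73 CPM in replicates 3 to 6. Every MI library lay above every sham library, and the MI libraries of replicates 1 and 2 lay far above those of replicates 3 to 6. Procr rose 2.51-fold, a log2 fold change of 1.33 (SE 0.24, edgeR adjusted p 0.000268, and 0.00767 in the second test). The fold was 4.54 in the smaller set and 1.84 in the larger. The test of that difference gave an adjusted p of 6e-04 with 12 libraries and 0.0599 with replicates 3 to 6 counted once, so it was not called, although without MI replicate 1 the second test gave 0.0431.

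Tfpi encodes the inhibitor that shuts off tissue factor with factor VII. It lies on chromosome 2, 84432855 to 84476775, minus strand. Sham replicates 1 and 2 held 101 and 77.8 CPM and MI replicates 1 and 2 held 71.3 and 46.7 CPM. In replicates 3 to 6 the sham libraries held 167, 156, 164 and 175 CPM and the MI libraries 141, 148, 147 and 139 CPM. Within each set the MI libraries lay below the sham libraries in CPM, but the sets themselves stood apart by more than the groups did. The log2 fold change was -0.33 (SE 0.11), with an edgeR adjusted p of 0.0163 in 12 libraries and 0.0993 with replicates 3 to 6 counted once, so Tfpi was not called. Without MI replicate 2 the value was -0.205. On log2(TPM + 1) its value was 0.39, against 0.54 for the median gene. In TPM the MI libraries of replicates 3 to 6 lay above the sham libraries, at 147 to 158 against 102 to 113. The groups of replicates 1 and 2 overlapped in TPM.

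Vwf encodes von Willebrand factor, the large protein of endothelium and platelets that tethers platelets to an injured vessel wall. The gene lies on chromosome 6, 125546774 to 125686679, plus strand. In replicates 1 and 2 the sham libraries held 51.7 and 59.7 CPM and the MI libraries 144 and 128 CPM, and Vwf was 2.41-fold higher in MI. In replicates 3 to 6 the sham libraries held 107, 114, 114 and 106 CPM and the MI libraries 68.1, 65.3, 68.4 and 63.3 CPM, and Vwf was lower in MI, at 0.623 of the sham level. In CPM the groups did not overlap within either set, and the direction was opposite. In TPM the groups of replicates 3 to 6 overlapped, at 15.3 to 16.6 in sham and 14.3 to 15.7 in MI. Replicates 1 and 2 stood at 8.83 to 9.88 TPM in sham and 34.8 to 37.4 TPM in MI. The edgeR test within replicates 1 and 2 gave an adjusted p of 0.000479, and that within replicates 3 to 6 gave 6.69e-17. The difference between the sets was -2.02 on the log2 scale (SE 0.10, edgeR adjusted p 2.58e-09, and 0.0153 with replicates 3 to 6 counted once). Vwf was the 1 gene of the 10 whose difference between sets was called, as it was for 10.6% of all tested genes. In the 12-library test alone it was called for Vwf, Procr and Plaur, 3 of the 10, and for 55% of all genes. Without sham replicate 1 the difference was -1.91 and without sham replicate 2 it was -2.12. The call was lost in both of these fits, which leave 1 sham library of replicates 1 and 2. With so few libraries these fits cannot show whether the call rests on either replicate. Over 12 libraries Vwf had a log2 fold change of -0.08 (SE 0.29), with an adjusted p of 0.817.

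Endothelial markers were read beside Vwf. Their sum over 12 genes went from 1360 to 1580 CPM in sham down to 818 to 884 CPM in MI for replicates 1 and 2, and from 1260 to 1280 CPM up to 1390 to 1430 CPM for replicates 3 to 6. Over 12 libraries none of these 12 rose, 4 fell and 8 were not called. Pecam1, an adhesion protein of endothelial junctions, had log2 fold changes of -0.54 and 0.39 in the 2 sets, and Cdh5, the cadherin of those junctions, -0.84 and 0.64. The difference between the sets was called for 4 of the 12, Cdh5, Kdr, Tek and Robo4, each with a positive sign where that of Vwf is negative, and was not called for Pecam1 (second edgeR adjusted p 0.0632). Nor was it called for Emcn, with log2 fold changes of 0.20 and -0.14 in the 2 sets, or Erg, with 0.38 and 0.37, both picked with their values known. Of 9 endocardial, venous and lymphatic markers 2 rose, 1 fell and 6 were not called, and their sum went from 156 to 188 CPM to 152 CPM in replicates 1 and 2 and from 229 to 243 CPM to 124 to 134 CPM in replicates 3 to 6. Prox1, a transcription factor and the most abundant of the 9, fell from a mean of 59.2 to 10.01 CPM and from 54.4 to 29.6 CPM. Whether its counts came from lymphatic vessels or from other cells of the ventricle was not tested. Lyve1, a lymphatic vessel gene also found in resident macrophages, went from a mean of 22.8 to 15.2 CPM and from 67.8 to 10.5 CPM and was not called (second edgeR adjusted p 0.0613). Selp, the P-selectin stored in the same endothelial granules as von Willebrand factor, was chosen after its values were seen, and rose from 0.755 to 10.4 CPM and from 1.81 to 5.89 CPM. The part of these cells in the results for Vwf, Thbd, Procr and Tfpi was not tested.

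Urokinase, its receptor and tissue-type plasminogen activator all rose after MI, in both replicate sets. Plau (chromosome 14, 20836660 to 20843385, plus strand) held 13.7 and 12.01 CPM in sham replicates 1 and 2 and 26.0 and 59.2 CPM in MI. Replicates 3 to 6 held 17.0, 16.9, 16.1 and 14 CPM in sham and 45.6, 47.1, 47.8 and 49.3 CPM in MI. MI replicates 1 and 2 differed more than 2-fold, and both lay above all sham libraries. Plau rose 3.08-fold, a log2 fold change of 1.62 (SE 0.16, edgeR adjusted p 2.02e-06, and 0.00675 in the second test), with 3.28-fold and 3.06-fold in the 2 sets.

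Plaur, the gene of the urokinase receptor, lies on chromosome 7, 24462484 to 24475968, plus strand, and had the largest fold of the 10 genes. Its sham level was 3.12 and 3.11 CPM in replicates 1 and 2 and 3.16, 2.98, 3.47 and 3.38 CPM in replicates 3 to 6, on 24 to 42 counts. MI libraries held 19.3 and 33.2 CPM in replicates 1 and 2 and 13.3, 13.8, 12.5 and 13.03 CPM in replicates 3 to 6. All 6 sham libraries were within 0.5 CPM of each other, and MI replicate 2 stood above the other MI libraries. Plaur rose 5.31-fold, a log2 fold change of 2.41 (SE 0.20, edgeR adjusted p 4.11e-07, and 0.00211 in the second test). The fold was 8.30 in the smaller set and 4.18 in the larger, and the test of that difference gave an adjusted p of 0.0103 with 12 libraries and 0.222 in the second test, so it was not called. That difference was -1.06 on the log2 scale with 12 libraries, -1.35 without MI replicate 1 (second edgeR adjusted p 0.0293, which would be a call) and -0.585 without MI replicate 2 (0.315).

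Plat, the gene of tissue-type plasminogen activator, lies on chromosome 8, 22757727 to 22782844, plus strand. Sham libraries held 19.2 and 24.5 CPM in replicates 1 and 2 and 25.4, 24.2, 22.4 and 22.6 CPM in replicates 3 to 6. MI libraries held 44.4 and 36.0 CPM in replicates 1 and 2 and 51.4, 50.1, 54.1 and 54.2 CPM in replicates 3 to 6. The groups were well apart in both sets. Plat rose 2.08-fold, a log2 fold change of 1.06 (SE 0.08, edgeR adjusted p 2.69e-07, and 0.0046 in the second test), with 1.81-fold and 2.29-fold in the 2 sets.

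**Figure D3:**
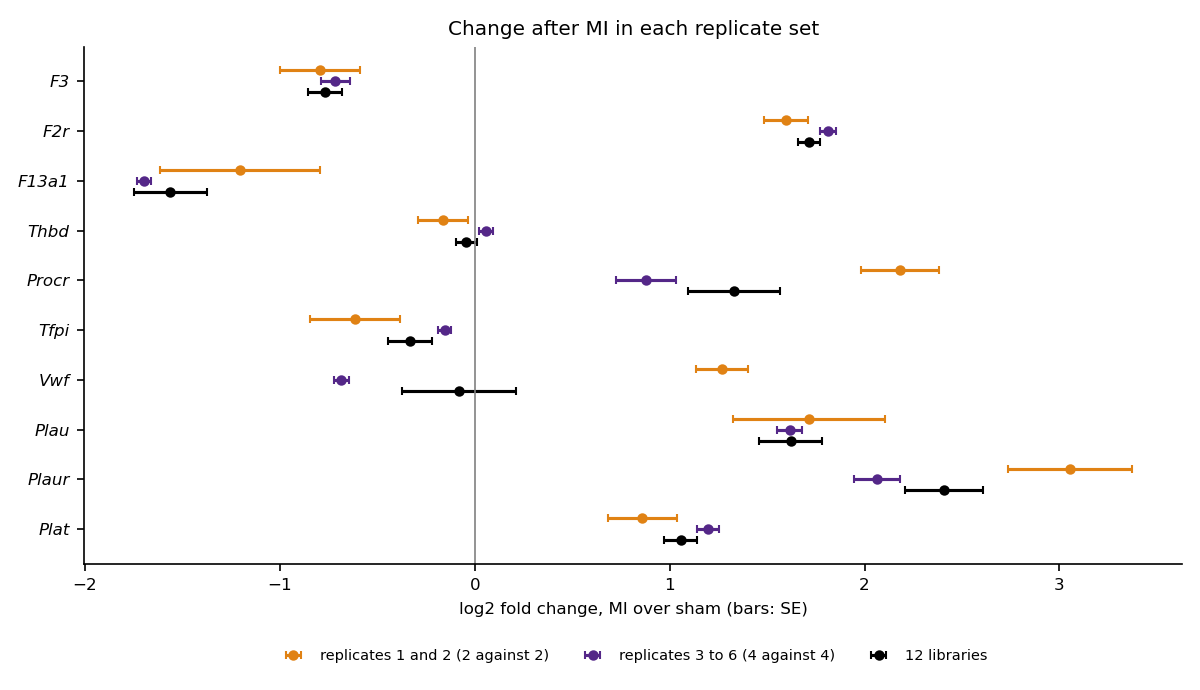
Log2 fold change of MI over sham (horizontal axis, bars give the SE) for each gene in replicates 1 and 2 (orange), replicates 3 to 6 (purple) and all 12 libraries (black). F2r, Procr, Plau, Plaur and Plat lie right of 0 in both sets, F3 and F13a1 left of 0 in both, and the values of Vwf are 1.27 and -0.68.

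Markers of inflammatory cells, fibroblasts and the heart's outer layer were read beside the plasminogen activation genes. Of 10 monocyte and neutrophil markers 6 rose and 4 were not called, and their sum went from 12.4 to 17.4 CPM up to 144 to 209 CPM in replicates 1 and 2 and from 43.3 to 47.4 CPM up to 194 to 196 CPM in replicates 3 to 6. Of 10 fibroblast markers 9 rose and 1, Dcn, was not called, with sums of 2950 to 3320 CPM in sham and 46200 to 56900 CPM in MI for replicates 1 and 2, and 3250 to 3420 CPM and 23300 to 23500 CPM for replicates 3 to 6. Of 9 epicardial and mesothelial markers 5 rose and 4 were not called, with sums of 66.9 to 70.6 CPM and 186 to 313 CPM, then 51.6 to 57 CPM and 71.5 to 76.3 CPM. Upk3b, a mesothelial membrane protein, went from a mean of 20.5 to 54.8 CPM in replicates 1 and 2 and from 12.03 to 5.28 CPM in replicates 3 to 6, and was not called. Of 8 smooth muscle and pericyte markers 3 rose, 4 fell and 1 was not called, with sums of 1200 to 1210 CPM and 754 to 818 CPM, then 1570 to 1660 CPM and 1010 to 1030 CPM. The part of these cells in the rises of F2r, Procr, Plau, Plaur and Plat was not tested.

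Ratios of TPM within a library compare the genes with each other, free of library scaling. Plau stood at 0.545 to 0.788 of Plat in the 6 sham libraries. In MI replicates 3 to 6 the ratio was 0.963 to 1.03, above every sham library, and in MI replicates 1 and 2 it was 0.653, within the sham range, and 1.82, above it.

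Thbd and Procr, the genes of 2 membrane proteins of the protein C system, were compared in the same way. Thbd relative to Procr was lower in every MI library than in every sham library of its set. Thbd exceeded Procr 10.4-fold and 10.5-fold in sham replicates 1 and 2 and 1.75-fold and 2.35-fold in MI. The ratio in replicates 3 to 6 was 6.09 to 10.5 in sham and 4.03 to 5.14 in MI. F3 stood at 0.145 to 0.180 of Tfpi in sham replicates 3 to 6 and at 0.0951 to 0.106 in MI, but in replicates 1 and 2 the MI values of 0.134 and 0.278 lay on both sides of the sham values of 0.225 and 0.235. By TPM, Tfpi was the highest of the 10 genes in sham libraries of both sets, with means of 62.3 and 107, and Procr and Plaur were the lowest, with means between 2.75 and 3.38. In MI replicates 3 to 6 Tfpi stayed first at 152 TPM, before F2r at 104 TPM, and Procr was last at 8.97 TPM.

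**Figure D4:**
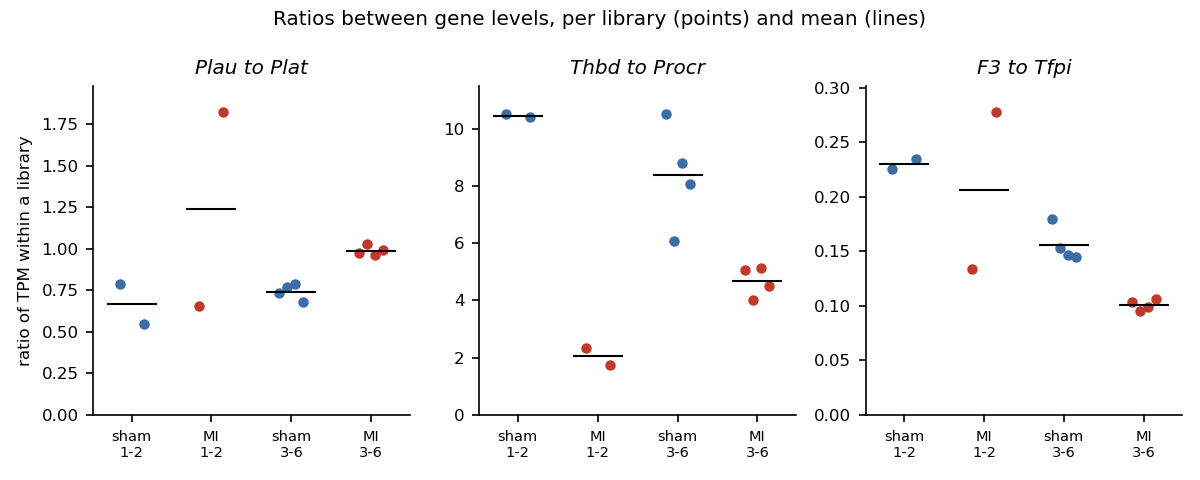
Ratios of TPM between pairs of genes within each library (vertical axis, from 0), with points for libraries, lines for means, blue for sham and red for MI. Thbd to Procr is lower in each MI library than in the sham libraries of its set, while Plau to Plat and F3 to Tfpi separate the groups in replicates 3 to 6 only.

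The other genes of these pathways were read from 5 lists holding 59 genes, of which 54 were in the table and 38 were tested. Of those, 26 rose, none fell by the call rule and 12 were not called, where 28.1% and 29.8% of all tested genes were called in each direction. The lists were chosen with earlier results of these data known, so these shares are a description. At an unadjusted p under 0.05 in both edgeR tests 1 gene was lower, Hpn, a membrane protease named here after its values were seen, and 0 of the 38 fell in DESeq2. The first edgeR test alone, adjusted, gave 2, S1pr1 and Hpn. The median log2 fold change of the 38 was 1.21, beside 0.01 for all tested genes, with 1.41 and 1.04 in the 2 sets. The difference between sets was called for Itgam, Lrp1, Serpine2 and Serpinb2, with a negative sign, and for Habp2, with a positive sign. Among all tested genes it was called for 10.6%. Adamts13, F12, Fga, Proc and Serpina10 were not analysed here. Fibrinogen, prothrombin and plasminogen, which the liver makes for the blood, were near 0 in these hearts: Fgb, Fgg, F2 and Plg each stood below 1 CPM in every group mean and were not tested.

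Among procoagulant factors and cofactors, 6 of 10 tested genes rose and 4 were not called, with a median of 0.93. Ano6, the scramblase that exposes the phospholipid on which clotting enzymes assemble, rose by 0.88. Vkorc1 and Ggcx, the reductase and the carboxylase of the vitamin K cycle that completes several clotting factors, rose by 1.82 and 0.98 on the log2 scale. Vkorc1l1, a related reductase, was not called (0.12). The 2 proteases that act with tissue factor were chosen after their values were seen. F7 was counted once in sham replicates 1 and 2 together and 421 times in MI, a ratio of 264 (95% counting interval 47.2 to 10500). Its counts in replicates 3 to 6 were 5 in sham and 348 in MI, a ratio of 35.2 (95% counting interval 14.9 to 109). F10 went from 4 to 469 counts, a ratio of 73.6 (95% counting interval 28.6 to 271), and from 12 to 235 counts, a ratio of 9.90 (5.56 to 19.4). Both rose by the call rule, with edgeR adjusted p of 1.8e-07 for F7 and 4.53e-06 for F10 in 12 libraries. F7 and F10 are known from the liver and from macrophages. Of the liver markers, 2 were tested and neither was called, and the sum of all 8 went from 67.5 to 76 CPM up to 187 to 243 CPM in replicates 1 and 2 and from 120 to 122 CPM down to 106 to 113 CPM in replicates 3 to 6. Most of that sum was 1 gene, Trf, with means of 63.0 and 210 CPM in sham and MI, then 116 and 108 CPM. Ahsg, the other tested marker, had means of 2.14 and 1.75 CPM, then 4.27 and 1.46 CPM. The part of either source was not tested.

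Among protease-activated and coagulation receptors, 4 of 6 tested genes rose and 2 were not called, with a median of 1.81. Itgb3, the beta chain of the platelet fibrinogen receptor and of a vitronectin receptor, rose by 2.38 on the log2 scale, and Itgb2, the beta chain of leukocyte integrins that bind fibrin, by 2.64. F2rl1, the gene of protease-activated receptor 2, rose by 1.32. S1pr1, a lipid receptor that steadies the endothelial barrier, was not called (-0.19). Of 7 tested anticoagulants 6 rose and 1 was not called, with a median of 0.98. Entpd1, which breaks down the ADP that activates platelets, rose by 0.98 on the log2 scale, Anxa5, which shields exposed phospholipid, by 1.03, and Tfpi2, a relative of Tfpi, by 1.91. Hs3st1, which makes the antithrombin-binding form of heparan sulfate, was not called (-0.06).

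Among plasminogen receptors and fibrin-degrading genes, 6 of 9 tested genes rose and 3 were not called, with a median of 1.61. Anxa2, a cell-surface receptor that holds plasminogen beside tissue-type activator, rose by 1.96 on the log2 scale. Mrc2, which takes up collagen and partners with the urokinase receptor, rose by 2.25, and Mmp14, a membrane protease of collagen and fibrin, by 3.33. Eno1, an enzyme of glycolysis that also binds plasminogen, had a log2 fold change of 0.60, with each MI library above each sham library in CPM. It was not called (edgeR adjusted p 9.15e-05 with 12 libraries and 0.0965 in the second test). Of 6 tested inhibitors of fibrin breakdown 4 rose and 2 were not called, with a median of 2.12. Serpine2, the gene of protease nexin 1, rose by 1.89 on the log2 scale, 6.79-fold in replicates 1 and 2 and 2.83-fold in replicates 3 to 6. Serpinb2, the gene of plasminogen activator inhibitor 2, had no counts in sham replicates 1 and 2 and 1003 in MI, at least 210-fold higher against a floor of 3 counts over both sham libraries. The counts of replicates 3 to 6 went from 6 to 331 counts, a ratio of 27.9 (95% counting interval 12.7 to 76.6). Tgm2, a tissue transglutaminase that links fibrin as factor XIII does, was not called (-0.04).

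**Figure D5:**
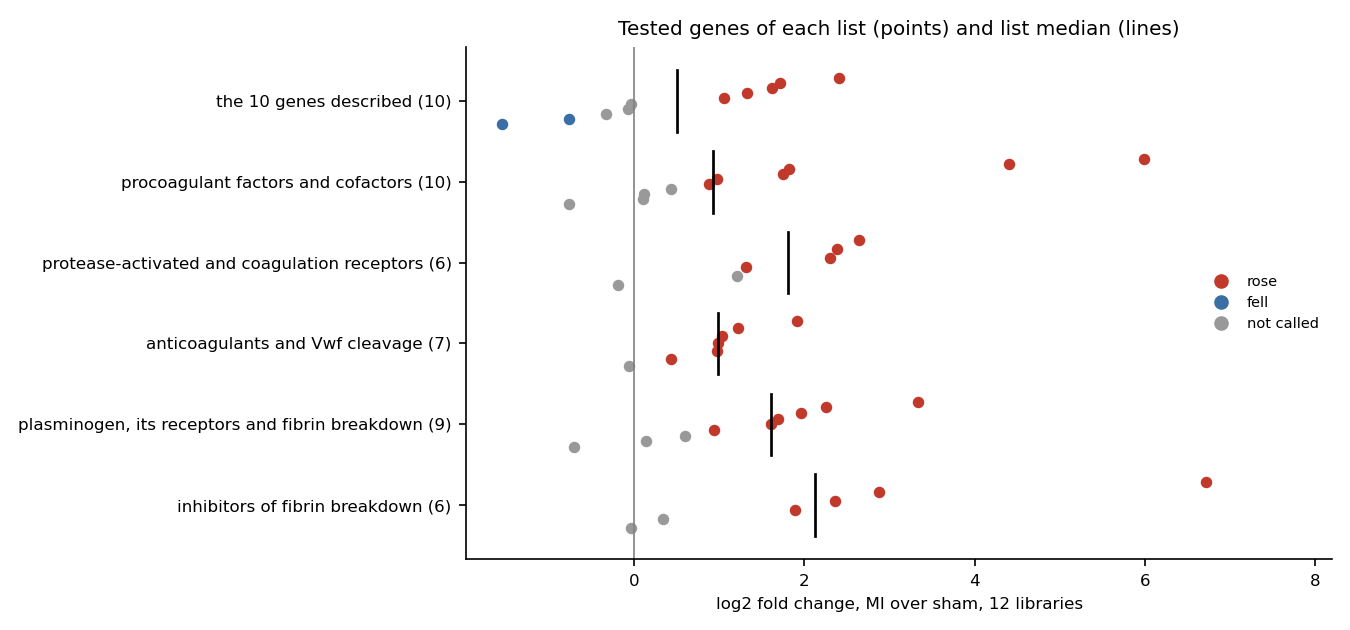
Log2 fold change of MI over sham in 12 libraries (horizontal axis) for the 10 genes and the tested genes of each pathway list, with the number tested in brackets, red for rose, blue for fell, grey for not called and a line at each median. None of the 38 tested genes of the 5 pathway lists is blue, and the list medians lie between 0.93 and 2.12.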

How the data were processed

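Expression was measured by RNA-seq in 12 mouse left ventricle libraries. The authors' deposited table gives expected counts, FPKM and TPM per gene and library. For replicates 3 to 6 the submitters' processing notes name Bowtie2, RSEM and DESeq2, without versions, and for all libraries GRCm38. For the expected counts of replicates 1 and 2 the aligner and counter are not given in the sources used here. A second deposited table holds FPKM for replicates 1 and 2, and its values for the 10 genes were 0.947 to 0.999 of those used.

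The expected counts, rounded to whole numbers, entered edgeR 4.0.16 under R 4.3.3, with TMM scaling, the filter on low counts filterByExpr, a quasi-likelihood fit with terms for replicate set and group, and Benjamini-Hochberg adjustment over all tested genes. The fit was repeated with replicates 3 to 6 of each group summed, since their scatter is small and their origin is not stated, and a call needed both. In that second test the summed sample is assumed to vary like the others. The difference between sets is set 3 to 6 minus set 1 and 2, tested in the same 2 ways. The SE is the log2 fold change divided by the square root of F. 425 genes blank in replicates 1 and 2 were not fitted. FPKM and TPM were tested with limma 3.58.1 on log2(value + 1), and DESeq2 1.42.0 was an alternative. On that log2 scale the change of low genes is understated. Depth limits precision: counting intervals are exact Poisson, at 95%, and, like the floor of 3 counts, cover counting error only. Strand use in counting is not stated.

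The 10 genes and the lists were chosen with earlier results of these data known. Named genes are all 10, in each pathway list the 3 called genes with the smallest adjusted p and the most abundant gene not called, in marker lists the 2 most abundant genes where they bear on a result, with others said in the text to be picked with their values known, and for each of the 10 the gene nearest in pattern. The values of 1 gene that this rule names are not reported here. Marker lists not described in the report gave these results: mast cells, 1 of 4 tested genes rose and 3 were not called; red cells, 6 of 6 were not called; lung, 2 of 2 tested genes rose.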

Additional observations from a re-analysis of the deposited data

Results flagged for a closer look

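In 40 groups of libraries checked for a library far from the rest, 3 values stood apart among the 10 genes, where chance alone sets apart about 1 group in 20 if its libraries scatter alike. Groups of 6 libraries pool 2 sets of unequal scatter, so that rate is no guide to them. F13a1 in MI had its lowest value in MI replicate 2, at 18.5 CPM against 47.6 CPM in the nearest library, a gap of 0.7 of the whole range. Plaur in MI had its highest value in MI replicate 2, at 33.2 CPM against 19.3 CPM in the nearest library, a gap of 0.673 of the range. Thbd in MI had its highest value in MI replicate 1, at 88.3 CPM against 79.7 CPM, a gap of 0.637 of the range. All 3 values come from MI replicates 1 and 2, where the scatter between libraries was larger.

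The effect of MI on Vwf differed between the replicate sets by -2.02 on the log2 scale. In CPM, Vwf was higher in MI in replicates 1 and 2 and lower in MI in replicates 3 to 6. In TPM the groups of replicates 3 to 6 overlapped, with means of 16.0 in sham and 15.1 in MI. The sets differ in processing notes, in scatter, and in the heart muscle and lung marker sums of their MI libraries. In replicates 3 to 6 sham and MI also differ in the beta-globin genes counted. Genetic background and the effect of MI cannot be told apart there. The part of each of these in the Vwf result was not tested.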

How the results depend on the processing

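F2r, Procr, Plau, Plaur and Plat were called higher under every alternative tried, including each library left out (5 in all such fits). Calls of F3 and F13a1 were less firm: 0 of the 10 genes fell with library size alone, on log2(TPM + 1), at an adjusted p under 0.01, without a term for replicate set or without sham replicate 1 (range 0 to 2 over libraries left out), 1 fell on log2(FPKM + 1) or log2(FPKM + 0.1), and 4 fell in replicates 3 to 6 alone. TPM was added after seeing the data. Of the values of single genes under alternatives, 235 kept their direction and call, 12 lost a call and 3 gained one in the same direction, and 20 turned sign. Those 20 belong to Thbd, Tfpi and Vwf, and in 4 of them the gene was called higher, Thbd on both FPKM scales and TPM and Vwf in replicates 1 and 2. Thbd was 0.37 with library size, 0.35 and 0.36 on the 2 FPKM scales, 0.59 on TPM, -0.0585 to 0.0258 with a library left out (above 0 without MI replicate 2) and 0.0586 in replicates 3 to 6. Tfpi was 0.076, 0.141, 0.141 and 0.386 on those scales. Vwf was 0.33, 0.31, 0.34 and 0.56 on those scales, -0.327 to 0.0454 with a library left out (above 0 without MI replicate 3, 4, 5 or 6), 0.61 with replicates 3 to 6 counted once and 1.27 in replicates 1 and 2. Over all tested genes the 3824 that rose became 6269 with library size, 6172 and 6212 on FPKM, 7584 on TPM, 2184 at 0.01, 2305 without the set term, 5759 in replicates 3 to 6 alone and 2240 to 3915 with a library left out. The 4055 that fell became 2478, 2545, 2562 and 1876 under those scalings, 2218 without the set term and 2789 to 4073 with a library left out. Other pathway genes that fell, 0 by the call rule, were 2 in the 12-library test alone, 3 in replicates 1 and 2, 1 in replicates 3 to 6 and 0 to 1 with a library left out. The 26 that rose were 22 to 27 with a library left out and 34 on TPM. The difference between sets, called for 1435 genes, was called for 1 at 0.01, for 7503 in the 12-library test alone and for 1 to 2964 with a library left out. Among the 10 genes it was called for 0 at 0.01, for 3 in the 12-library test alone and for 0 to 3 with a library left out. The cause was not tested. Sham and MI libraries of the same replicate number had nearly uncorrelated deviations from their set means (r between -0.0578 and 0.0656). With 2 libraries per group, replicates 1 and 2 give the same r by construction. These values cannot settle whether the numbers pair sham with MI. With a replicate block 5 of the 10 genes rose and 2 fell, and 3153 of all tested genes rose and 3528 fell. Depth limits Procr and Plaur in sham, at 24 to 48 counts.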

Other observations

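For each of the 10 genes, the tested gene nearest in pattern was found by Pearson's r of log2 CPM over 12 libraries. The libraries share their groups and replicate sets, so any gene that changes with MI resembles many others, and r is given as a description. F2r was nearest to Hmox1, the heme oxygenase gene (r 0.997), with 417 genes above an r of 0.95. Plaur was nearest to Gm2a, a lysosomal lipid-binding protein (r 0.998), with 709 genes above 0.95, the most of the 10. Plau was nearest to Ccl2, the chemokine that draws monocytes (r 0.992, 160 genes), and Plat to Pigc (r 0.983, 100 genes). Procr was nearest to Greb1 (r 0.977, 84 genes). Among those that fell, F3 was nearest to Nadk2, a mitochondrial NAD kinase (r 0.983, 185 genes), and F13a1 to Mapk12, a p38 kinase gene of muscle (r 0.987, 102 genes). Tfpi was nearest to Mcc (r 0.985, 42 genes). Vwf and Thbd had few such genes: Flt3l was nearest to Vwf (r 0.965, 4 genes) and Pam to Thbd (r 0.953, 1 gene).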
